A study of Mus musculus with 24 samples.

Results

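The mRNAs described here encode the translation initiation and elongation factors of mouse 32D cells, the proteins that load ribosomes on mRNA and carry them along it. The set held 58 of the 55414 annotated genes: every protein-coding gene whose symbol starts with Eif and a digit or with Eef1 or Eef2, without the eIF2 kinases, the kinases and methyltransferases of elongation factors, and pseudogenes. Of these, 54 had enough counts to be tested. The other 4 did not: Eif2s3y, the Y-linked copy of an eIF2 subunit, and Eif4e1b, a cap-binding protein of oocytes, had 0 counts in all 24 libraries, which allows a level of up to 0.00758 CPM (gene counts scaled to a common library size). Eef1a2, the elongation factor of muscle and neurons, had 30 counts in all, and Eif5a2, the second eIF5A gene, had 63.

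32D is a myeloid line from mouse bone marrow that needs interleukin-3 to grow, and the cells were kept in 10% serum with IL-3 at 10 ng/ml. Wild-type cells (WT) were compared with KO1 and KO2, each labelled Nat10+/- and taken here as 1 clone apiece. Nat10 is the enzyme that makes N4-acetylcytidine in RNA, and the series asked whether its loss alters how long mRNAs last. Polyadenylated RNA of all 3 genotypes was sequenced after 0, 3, 6 or 9 h with the transcription blocker actinomycin D (0.05 µg/ml), with 2 libraries for each genotype and time, all from cells grown alike. Low doses of the drug are known to act most strongly on RNA polymerase I, so a level measured here is not by itself a decay rate.

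Each library held 15361601 to 17338939 gene counts. Nat10 itself stood at 111 and 113.1 CPM in the WT libraries of 0 h, at 97.6 and 108.4 in KO1 and at 99.14 and 95.08 in KO2, so its mRNA was only 1.09-fold and 1.15-fold lower (edgeR adjusted p = 0.0486 and 0.000291). These counts run over the whole gene and do not show how much working protein is left. Blood-cell markers fitted the line in part: Ptprc, Spi1, Myb, Csf2rb and Prtn3 were present in every library, whereas Kit had 3 counts in all, and Mpo and Elane stayed at or under 3.571 and 1.339 CPM. The labels call the cells lymphoblasts of bone marrow, but Cd3e and Cd4, markers of T cells, had 1 and 0 counts in all. The B cell gene Cd79a reached 25.03 CPM, the 5 stromal genes stayed at or under 3.017 CPM, and Hba-a1 lay between 4.174 and 17.45 CPM. Their part in the results was not tested.

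Spike-in RNA, added in equal amount to every sample per the labels, gave 120 to 257 counts in the WT libraries and 3742 to 13774 in the clones. Levels were therefore set relative to the average transcript (TMM scaling), and every "higher" or "lower" below is meant in that sense. Scaling by spike-in totals instead moved the median of all genes by -5.06 (log2) in KO1 against WT at 0 h and by -5.53 in KO2, and turned every factor lower in both clones at all 4 times. Both tables of a pair name an alignment of the same name, and although the labels call them biological replicates, nothing shows separate cultures, so p-values reflect only library-to-library spread and this could be technical. That spread was small: the biological coefficient of variation was 2.06%.

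Initiation begins when eIF2, loaded with GTP and the initiator tRNA, joins eIF1, eIF1A, eIF5 and the large eIF3 complex on the small ribosomal subunit. eIF4F, made of the cap-binding eIF4E, the scaffold eIF4G and the helicase eIF4A, brings that complex to the capped end of an mRNA, and eIF2B recharges eIF2 after each round. In elongation eEF1A delivers aminoacyl-tRNA, the eEF1B subunits recharge it, and eEF2 moves the ribosome on. Many of the elongation factors and a few eIF3 subunits belong to the TOP mRNAs, whose first bases are a run of pyrimidines and whose translation follows growth signals through mTORC1.

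Elongation factors dominated the set. The 58 genes together took 3.1% and 3.107% of the gene counts in WT at 0 h. Per kilobase of exon, Eef1a1 had the highest mean level over all libraries (5223 CPM per kb), followed by Eef2 (1376), Eif5a (456.5), Eef1g (419.5) and Eef1b2 (369.4). Among tested genes the lowest per kilobase were Eif2b3, the gamma subunit of eIF2B (3.748), and Eif4ebp3, a repressor of eIF4E (0.859). These levels depend on the annotated exon length, which joins the exons of all isoforms.

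**Figure D1:**
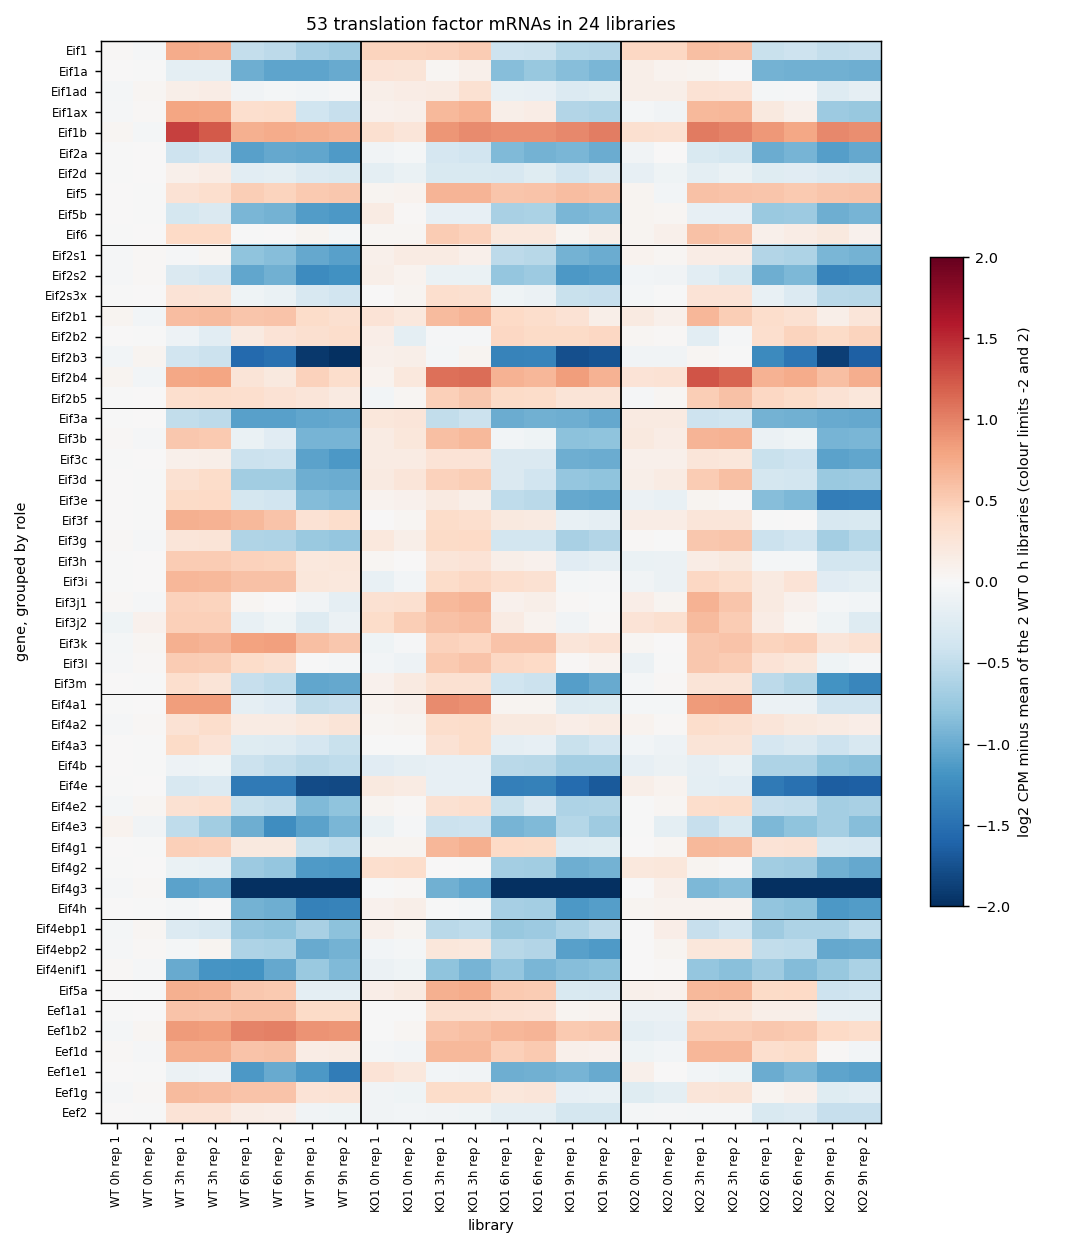
Level of 53 factors (rows, grouped by role) in each of the 24 libraries (columns), as log2 CPM on the TMM scale minus the mean of the WT libraries of 0 h; Eif4ebp3, with few counts, is left out, and colours end at -2 and 2. More rows are red than blue at 3 h and more are blue than red at 9 h in all 3 genotypes, and Eif4g3 is among the darkest rows at 9 h; with spike-in scaling the clones would lie below WT throughout.

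Before the drug, KO1 had more mRNA than WT for many initiation factors, and KO2 for fewer. In KO1, 25 of 54 factors were higher (46.3%) and 5 lower (9.26%). Of all 16167 genes tested, 15% were higher and 12.3% lower (edgeR, adjusted p under 0.05). In KO2, 14 were higher (25.9%) and 8 lower (14.8%), against 15.1% and 14.3%. The lower share in KO2 was thus near that of all genes. The median difference was 0.08 (log2) in KO1 and 0.02 in KO2, beside 0.01 and 0.00 over all genes. With DESeq2, 19 factors were higher and 5 lower in KO1, and 11 and 8 in KO2. Scaled by spike-in totals, 0 factors were higher and 54 lower in each clone. Both comparisons use the same WT libraries. Without WT replicate 2 of 0 h, the count of lower factors in KO1 went from 5 to 2.

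Eif1, the gatekeeper of start codon choice, had the largest called difference in each clone. It stood at 294.4 and 285.0 CPM in WT, 394.3 and 393.6 in KO1, and 384.2 in each KO2 library. Every clone library lay above every WT library, by 1.36-fold in KO1 (log2 0.44, SE 0.03, adjusted p = 3.91e-28) and 1.33-fold in KO2 (0.41, SE 0.03, 4.67e-26), a direction that spike-in scaling turned. Its paralog Eif1b was also higher in KO2, with 33 and 32.88 CPM against 27.33 and 25.76 in WT (log2 0.31, SE 0.08, adjusted p = 0.000531). In KO1 it had 33 and 31.53 CPM (log2 0.28, adjusted p = 0.00235). Under the drug Eif1 was lower than WT at 3 h (log2 -0.25 in KO1 and -0.14 in KO2) and higher at 9 h (0.11 and 0.22; lower with spike-in scaling).

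The list of 10 scanning and start-site factors also takes in Eif6 and Eif1ad. In KO1 6 of the list were higher and 1 lower, beside 15% and 12.3% of all genes. In KO2 4 were higher and 0 lower, beside 15.1% and 14.3%. Under spike-in scaling the whole list is lower in both clones, as are all factors. Eif1a, which helps eIF1 in scanning, rose in both (log2 0.26 in KO1 and 0.10 in KO2). Eif2d, a factor that can bring tRNA to the ribosome without eIF2, was the lower one in KO1, with 69.11 and 72.21 CPM against 78.85 and 79.69. Its call (log2 -0.17, SE 0.05, adjusted p = 0.00901) was lost without WT replicate 2 (0.0802) and without KO1 replicate 1 (0.152). In eIF2, 2 of 3 tested genes were higher in KO1, Eif2s1 (log2 0.13) and Eif2s2 (0.09), and 0 passed in KO2. In eIF2B, Eif2b1 was higher in KO1 (0.25) and Eif2b4 in KO2 (0.28), and the other 4 genes did not pass in that clone.

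Several eIF3 genes were among the higher ones. Of the 14 subunit genes, 9 were higher and 1 lower in KO1, beside 15% and 12.3% of all genes. In KO2 6 were higher and 3 lower, beside 15.1% and 14.3%. Spike-in scaling set all 14 lower in both clones. Eif3a, the largest scaffold subunit, had 1345 and 1365 CPM in WT, 1577 and 1605 in KO1, and 1538 and 1528 in KO2, so that the groups did not overlap (log2 0.23 and 0.18). Eif3j2 showed the largest difference of the complex. This loosely bound subunit rose from 37.86 and 42.47 CPM to 51.61 and 56.22 in KO1 (log2 0.43, SE 0.07, adjusted p = 1.81e-07) and 48.51 and 49.81 in KO2 (0.29, SE 0.07, 0.000357). The KO2 call was lost without WT replicate 1 (adjusted p = 0.0543). Eif3j1 and Eif3j2 are near-identical copies, so counts could be split between them. Eif3i, a small subunit, was lower in KO1 (156.2 and 166.8 CPM against 171.5 and 173.4; log2 -0.09, adjusted p = 0.0334), a call lost without either WT library (0.0926 and 0.205) and without KO1 replicate 1 (0.551).

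**Figure D2:**
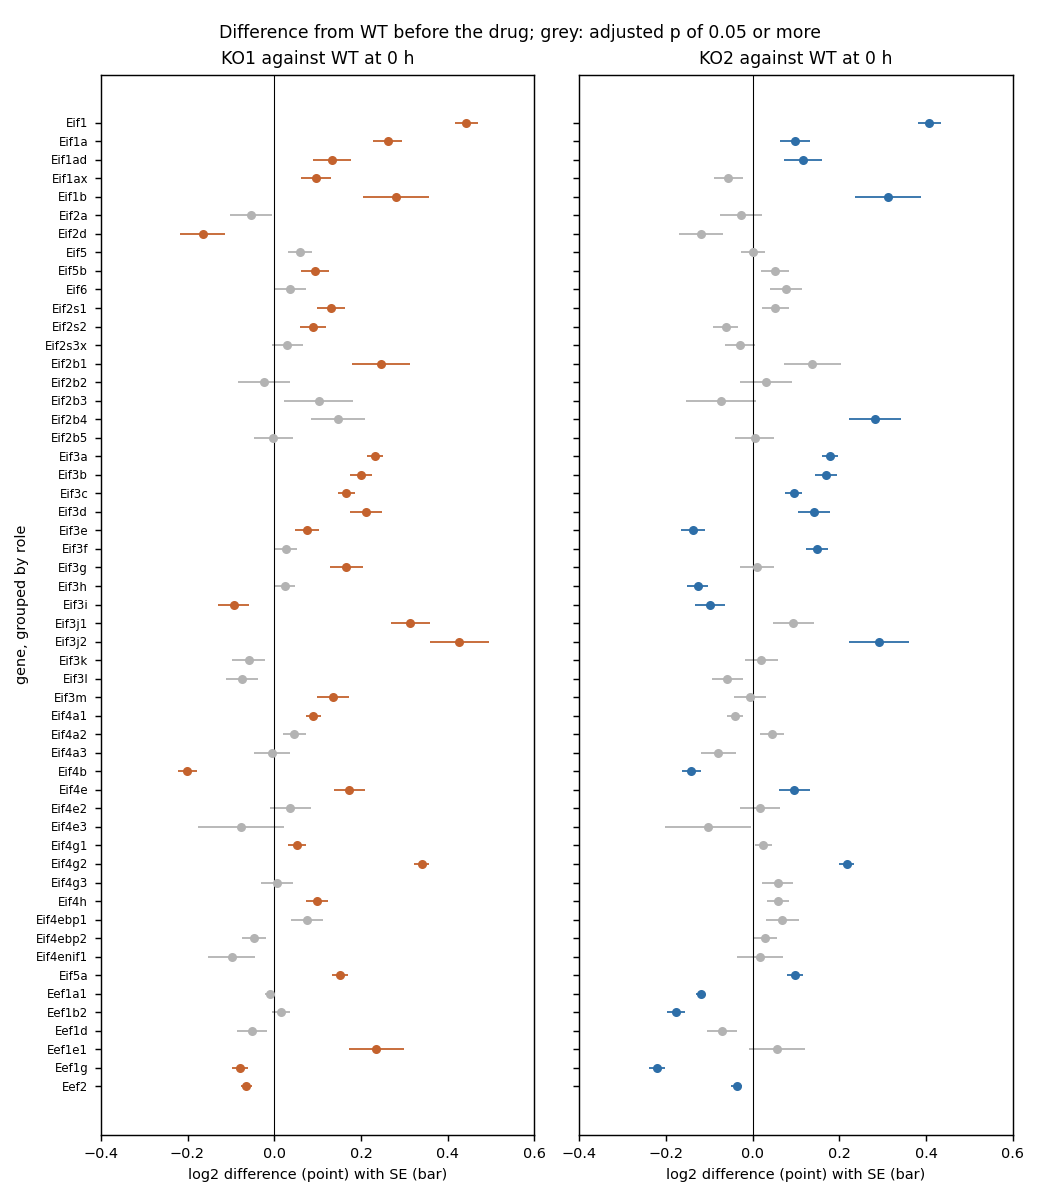
Log2 difference from WT at 0 h (points) with its standard error (bars) for 53 factors, KO1 on the left and KO2 on the right; coloured points passed an adjusted p under 0.05 (edgeR, TMM scale), and Eif4ebp3 is left out. Eif1 lies farthest right in each panel, Eif4b farthest left in KO1 and Eef1g in KO2; scaled by spike-in totals, all points would lie far to the left of 0.

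Among the 11 tested genes of eIF4F and its helpers, 5 were higher and 1 lower in KO1 (15% and 12.3% of all genes). In KO2 2 were higher and 1 lower, near the shares of all genes (15.1% and 14.3%). With spike-in scaling 0 were higher in each clone. These 11 include paralogs such as Eif4a3 and Eif4e2, so the counts are not for eIF4F alone. Eif4g2, the eIF4G relative DAP5 that lacks the site for eIF4E, rose from 1284 and 1297 CPM to 1627 and 1641 in KO1 (1.27-fold, log2 0.34, SE 0.02, adjusted p = 2.33e-32) and 1497 and 1503 in KO2 (log2 0.22). Eif4e itself was higher by 0.17 and 0.10 (log2). Eif4b, a stimulator of the eIF4A helicase, was lower in both clones. It stood at 618 and 616.8 CPM in WT, 529.1 and 545.2 in KO1 (log2 -0.20, SE 0.02, adjusted p = 5.58e-13) and 553 and 566.7 in KO2 (-0.14, SE 0.02, 7.03e-08). None of the 4 repressor genes of the cap-binding step passed the test in either clone (lowest and highest log2 -0.10 and 0.30 in KO1, -0.37 and 0.07 in KO2), although all 4 are lower with spike-in scaling.

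Elongation factors that passed the test were lower in KO2 and mixed in KO1. Of 6 tested, 1 was higher and 2 lower in KO1, and 0 were higher and 4 lower in KO2. The shares of all genes were 15% and 12.3% in KO1 and 15.1% and 14.3% in KO2. The higher one in KO1 was Eef1e1, an auxiliary protein of the tRNA synthetase complex (lower under spike-in scaling). Eef1g, the scaffold of eEF1B, had 955.1 and 982.2 CPM in WT, 926.3 and 908.1 in KO1 and 816.3 and 845.3 in KO2. All 3 groups were apart, with a fall of 0.22 (log2, SE 0.02, adjusted p = 5.56e-19) in KO2 and one of 0.08 in KO1. Eef1b2, the exchange subunit, stood at 634.5 and 668.3 CPM in WT and at 569.7 and 582.6 in KO2 (log2 -0.18, SE 0.02, adjusted p = 4.83e-12). The KO1 libraries (647.5 and 668.8 CPM) overlapped those of WT. Eef1a1 fell by 0.12 in KO2, and its KO1 difference of -0.01 did not pass. Eif5a, the hypusine-bearing factor that helps stalled ribosomes, was higher in each clone (log2 0.15 and 0.10), though lower under spike-in scaling.

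Set directly against each other, the clones also differed at 0 h. KO2 had 17 factors lower than KO1 and 2 higher, against 9.55% and 7.29% of all genes. The higher count was 1 with DESeq2, with no filter, without KO1 replicate 2 and without KO2 replicate 2, and total-count scaling gave 4 higher and 14 lower. Spike-in scaling gave 0 and 54. Eif3e, an eIF3 subunit, had 351.1 and 353.1 CPM in KO1 and 307 and 300.4 in KO2 (log2 -0.21, SE 0.03, adjusted p = 2.12e-10). Eif3j1 was lower by 0.22 (112.8 and 113.5 against 99.32 and 95.08 CPM, SE 0.05, adjusted p = 8.41e-05) and Eef1b2 by 0.19 (SE 0.02, adjusted p = 3.75e-13). Eif3f, an eIF3 subunit with an MPN domain, was higher in KO2 by 0.12 (350 and 356.8 against 385.7 and 383.6 CPM, adjusted p = 0.000113), a sign that spike-in scaling turned. Eif4ebp2, a repressor of eIF4E, was the other higher call (314.6 and 320.6 against 329.6 and 339.9 CPM; log2 0.08, adjusted p = 0.0482). It was lost without KO1 replicate 1 (0.319), KO1 replicate 2 (0.112) or KO2 replicate 2 (0.432), and also turned under spike-in scaling.

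Relative to the average transcript, more factors were higher than lower after 3 h of actinomycin D, and more were lower than higher after 9 h; these are counts at each time and not a course shared by all. In WT 35 of 54 were higher and 15 lower at 3 h, against 38.6% and 33.5% of all genes, with a median of 0.32 (log2) beside 0.13 over all genes. At 6 h 20 were higher and 29 lower, against 42.4% and 36.8%. At 9 h 15 were higher and 35 lower, against 43.2% and 38.5%, and the median was -0.48 beside 0.13. On the TMM scale, the highest of the 4 time points was 3 h for 33 factors in WT, 33 in KO1 and 36 in KO2. Peak times over all genes were not counted, so this only describes the factors. With spike-in scaling, WT had 5 higher and 22 lower at 3 h, 0 and 46 at 6 h, and 0 and 52 at 9 h. It moved the median of all genes by -0.82 at 9 h, so the rises named below for WT at 9 h are relative to the average transcript and did not pass as rises on that scale.

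The clones followed a like course. KO1 had 33 higher and 15 lower at 3 h (37.9% and 33.4% of all genes), 18 and 33 at 6 h (40.6% and 37.4%), and 11 and 40 at 9 h (42.2% and 38.3%). KO2 had 35 and 12 at 3 h (37.6% and 33.3%), 18 and 34 at 6 h (41.5% and 37.7%), and 8 and 40 at 9 h (42% and 38.8%). Spike-in scaling gave 16 and 15, 0 and 40, and 7 and 33 in KO1, and 0 and 35, 0 and 54, and 0 and 54 in KO2. Total-count scaling gave 15 higher and 36 lower in KO2 at 9 h. At 9 h, 35 factors were lower in all 3 genotypes and 8 were higher in all 3. Joint calls over all genes were not counted, so these numbers only describe the factors.

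**Figure D3:**
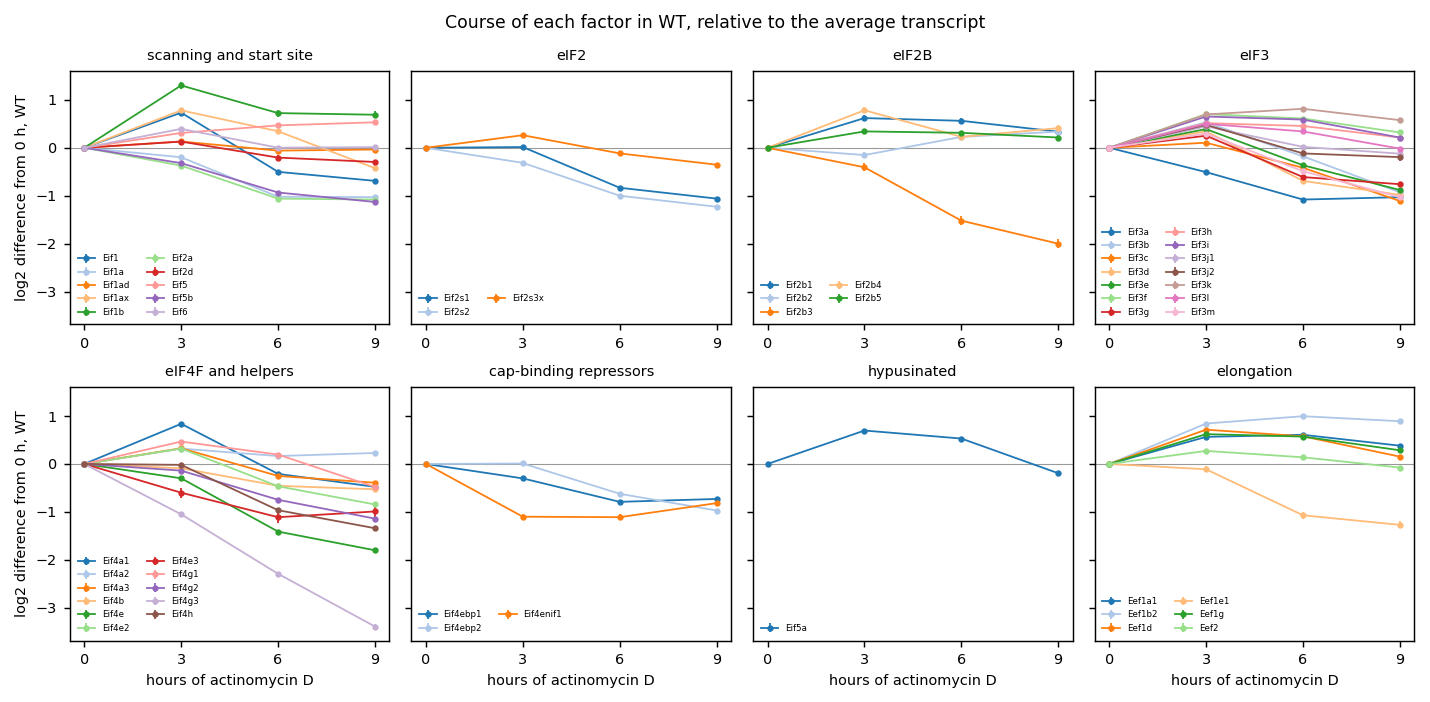
Log2 difference from 0 h in WT (vertical axis, relative to the average transcript, bars are standard errors) against hours of actinomycin D, with 1 panel for each role and 1 line for each gene; Eif4ebp3 is left out. Lines of eIF4F fan out, with Eif4g3 at -3.39 and Eif4a2 at 0.23 at 9 h, while most eIF3 lines peak at 3 h; on the spike-in scale no factor was called higher at 9 h.

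Eif4g3, a scaffold paralog of eIF4G, lost the most. Its WT libraries held 247.9 and 256.3 CPM at 0 h, 119.9 and 124 at 3 h, 50.08 and 52.73 at 6 h and 23.3 and 24.84 at 9 h. Each step lay below the one before with no overlap, a 10.5-fold fall over 9 h (log2 -3.39, SE 0.05, adjusted p = 4.08e-81). KO1 went from 249.5 and 256.9 to 18.28 and 19.4 CPM and KO2 from 254.6 and 270.2 to 21.18 and 19.55.

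Eif4e, the cap-binding protein, fell from 179.5 and 179.6 CPM to 52.14 and 51.31 at 9 h in WT (3.47-fold, log2 -1.80, SE 0.04, adjusted p = 1.21e-62). Its difference at 3 h was -0.30. Eif4h and Eif4g2 fell by 1.34 and 1.14 (log2). Of the 11 genes listed under eIF4F and its helpers, Eif4a3 and Eif4e2 among them, 10 were lower at 9 h, beside 38.5% of all genes. Eif4a2, the second helicase gene, was the 1 that was higher (log2 0.23, lower with spike-in scaling). Eif4a1, the main helicase, first rose from 974.6 and 987.1 CPM to 1746 and 1759 at 3 h and then fell to 696.3 and 713.5 at 9 h. Among the repressors, Eif4ebp1 and Eif4ebp2 were lower at 9 h (log2 -0.73 and -0.97), and Eif4enif1, which carries eIF4E into the nucleus and to P-bodies, had dropped by 3 h (-1.10).

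In eIF2B, Eif2b3 went against the other subunits. It fell from 36.38 and 38.99 CPM to 9.846 and 8.939 in WT (4.01-fold, log2 -2.0, SE 0.10, adjusted p = 3.94e-36). The other 4 subunit genes were higher at 9 h, by 0.21 to 0.41 (log2), so the genes of this 5-subunit enzyme did not keep their ratios. All 3 tested genes of eIF2 were lower: Eif2s1, the alpha subunit that stress kinases phosphorylate, by 1.06, Eif2s2 by 1.23 and Eif2s3x by 0.35 (log2). Eif2s3x was higher at 3 h (0.26).

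The eIF3 subunits split under the drug. At 3 h 13 of 14 were higher in WT and 1, Eif3a, lower, beside 38.6% and 33.5% of all genes. At 9 h 4 were higher and 9 lower, beside 43.2% and 38.5% of all genes. Eif3k rose from 128.8 and 134.7 CPM to 200.6 and 192.2 at 9 h (1.49-fold, log2 0.58, SE 0.03, adjusted p = 1.53e-29), a direction that spike-in scaling turned. Eif3f, Eif3h and Eif3i were the other 3 that were higher (log2 0.32, 0.21 and 0.21). Eif3c, Eif3a, Eif3m, Eif3d and Eif3b lost between 0.93 and 1.11. Summed over the 14 genes, the level went from 4659 and 4676 CPM at 0 h to 5407 and 5379 at 3 h and 3239 and 3230 at 9 h.

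Of the 6 elongation factors tested, 4 were higher and 2 lower at 9 h in WT, 3 and 3 in KO1, and 1 and 2 in KO2. The shares of all genes were 43.2% and 38.5% in WT, 42.2% and 38.3% in KO1, and 42% and 38.8% in KO2. Eef1b2 rose from 634.5 and 668.3 CPM to 1210 and 1206 at 9 h in WT (1.85-fold, log2 0.89, SE 0.02, adjusted p = 7.35e-67). On the spike-in scale that difference was 0.07 and did not pass (adjusted p = 0.607). Eef1a1, Eef1g and Eef1d were higher at 9 h by 0.38, 0.28 and 0.15, whereas Eef2 was lower by 0.08. Eef1e1, an auxiliary protein of the tRNA synthetase complex, fell by 1.27. Of the scanning factors Eif1b rose from 27.33 and 25.76 CPM to 43.29 and 42.31 (1.61-fold, log2 0.69, SE 0.07, adjusted p = 1.58e-15), a sign turned by spike-in scaling, and Eif5, the GTPase activator of eIF2, rose by 0.53. Eif5b, which joins the ribosomal subunits, fell by 1.13.

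Several ratios between paralogs shifted under the drug, by levels per kilobase in single libraries. That of Eif3j1 to Eif3j2 overlapped in WT, with 0.998 and 0.86 at 0 h and 1.06 and 0.888 at 9 h. The ratio of Eif1 to Eif1b went from 5.78 and 5.93 in WT at 0 h to 2.26 and 2.23 at 9 h. That of Eif4a1 to Eif4a2 rose from 3.88 and 3.79 to 5.57 and 5.39 at 3 h in WT. At 9 h it was 2.36 and 2.34 in WT, 2.92 and 2.87 in KO1 and 2.61 and 2.69 in KO2. Eif1a to Eif1ax fell in WT from 1.49 and 1.43 to 0.587 and 0.55 at 6 h, and stood at 0.929 and 0.995 at 9 h. Eif4g1 to Eif4g2 went from 0.817 and 0.804 at 0 h to 1.3 and 1.26 at 9 h. Which gene leads at 9 h depends on the annotated exon length. In CPM not divided by length, Eif4g2 still led in WT at 9 h (591.4 and 581.4 against 551.3 and 526). Eif4g1 to Eif4g3 went from 4.6 and 4.43 to 35.8 and 32.1, and stood at 52 and 49.8 in KO1 and 43.1 and 46.1 in KO2. Eif4e to Eif4e2, its weaker cap-binding relative, went from 2.42 and 2.3 to 1.26 and 1.18. A ratio within a library does not depend on the scaling, and it shows unequal change of the members, not which of them changed.

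Gene span went along with the change in WT. Across the 54 factors the log2 difference at 9 h correlated with log10 of the span from first to last exon at r = -0.613 (Spearman -0.581), as a description of genes that share the same libraries. The 34 genes under 20 kb had a median of -0.06, the 16 between 20 and 50 kb one of -0.90. Only 4 were longer, with a median of -1.56. Eif4g3 spans 215487 bases (chromosome 4, 137720333 to 137935819, GRCm39). Eif3h (chromosome 15, 51649954 to 51728919) was the exception among the 4, at 0.21. In KO1 the coefficient was -0.46 and in KO2 -0.544.

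**Figure D4:**
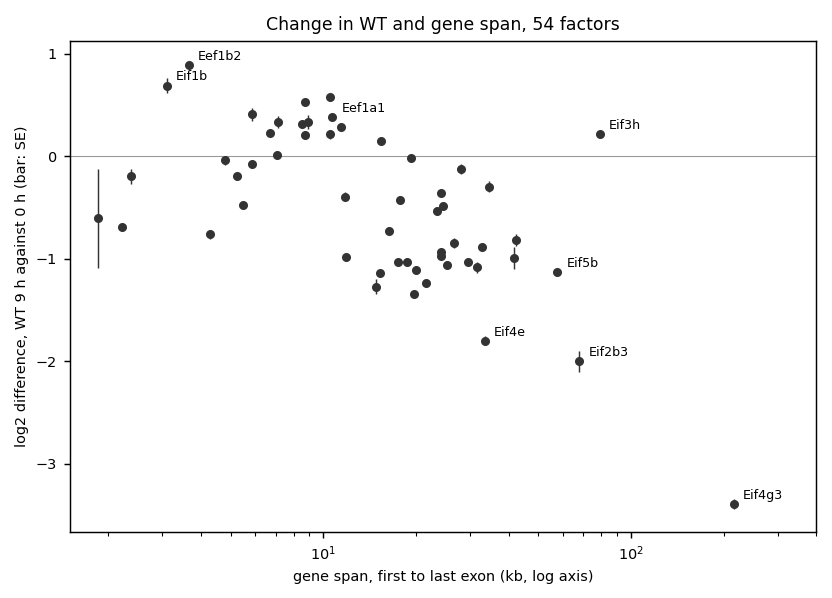
Log2 difference between 9 h and 0 h in WT (vertical axis, TMM scale, bars are standard errors) against gene span in kilobases on a log axis, 1 point for each of the 54 factors. Eif4g3, the longest gene, is lowest at -3.39, and Eif3h stands above 0 despite its length; spike-in scaling would move all points down.

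Relative to the average transcript, most TOP mRNAs gained less or lost more under the drug in the clones than in WT, a direction that spike-in scaling turned in KO1. The 9 genes of the set listed as textbook TOP mRNAs are Eef1a1, Eef1b2, Eef1d, Eef1g, Eef2, Eif3e, Eif3f, Eif3h and Eif4b. For 5 of them the start region was at hand from RefSeq (build GRCm38.p6), and they are shown because a TOP mRNA is defined by its first bases. Each line gives 30 bases, 5′ to 3′ on the gene's strand, of which the sixteenth is the annotated start; capitals mark the run of C or T that touches the start or a base next to it.
Eef1a1 (chr9:78481710-78481739, minus): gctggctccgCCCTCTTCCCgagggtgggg
Eif3f (chr7:108934400-108934429, plus): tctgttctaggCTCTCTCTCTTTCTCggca
Eef1b2 (chr1:63176816-63176845, plus): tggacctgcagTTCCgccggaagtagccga
Eef2 (chr10:81176616-81176645, plus): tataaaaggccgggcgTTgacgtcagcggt
Eif4b (chr15:102073758-102073787, plus): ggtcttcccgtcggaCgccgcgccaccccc
Eef1a1 and Eif3f carry runs of 10 and 15, the other 3 of 4, 2 and 1. These lengths include bases before the annotated start, and the run of Eef1b2 lies wholly before it. They are therefore not lengths of pyrimidines within the mRNA. A run of at least 5 with a C in it, on the strand of the gene, was found at 2 of these 5 starts, at 12 of 56 starts of 44 factors (21.4%) and at 18.5% of all 32851 starts in the table. The annotated base need not be the one used in these cells.

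Before the drug, 1 TOP gene was higher and 3 lower in KO1 and 1 higher and 7 lower in KO2, with medians of -0.01 and -0.13 (log2). The shares of all genes were 15% and 12.3% in KO1 and 15.1% and 14.3% in KO2. At 3 h 8 TOP genes were lower in each clone and 0 higher (medians -0.26 and -0.34). Of all genes, 20.1% were higher and 16.7% lower in KO1, and 21.1% and 17.6% in KO2. At 9 h 8 TOP genes were lower in KO1 and all 9 in KO2, again with 0 higher. Of all genes, 19.3% were higher and 15.1% lower in KO1, and 18.7% and 16.5% in KO2. The TOP medians were -0.32 and -0.51, beside 0.01 and -0.01 over all genes. Total-count scaling gave the same counts at 9 h with medians of -0.28 and -0.43, and spike-in scaling gave 9 lower in each. The other 45 factors had 21 higher and 9 lower in KO1 at 9 h (19.3% and 15.1% of all genes). In KO2 they had 16 and 10 (18.7% and 16.5%), and spike-in scaling turned the higher counts of both clones to 0.

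Over all 54 factors, KO1 against WT gave 21 higher and 15 lower at 3 h (20.1% and 16.7% of all genes), 22 and 12 at 6 h (18.4% and 17.4%) and 21 and 17 at 9 h (19.3% and 15.1%). KO2 gave 22 and 16 at 3 h (21.1% and 17.6%), 19 and 16 at 6 h (17.5% and 16.8%) and 16 and 19 at 9 h (18.7% and 16.5%). Total-count scaling gave 33 and 10 in KO1 at 6 h, and 28 and 11, 31 and 13, and 27 and 16 in KO2 at the 3 times. Spike-in scaling gave 0 and 54 throughout. Without WT replicate 2 of 9 h, the higher count in KO2 at 9 h went from 16 to 10.

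Eif3f showed the widest gap of the 9 at 9 h, taken as a log2 difference. Its WT libraries went from 349 and 345.2 CPM at 0 h to 423.3 and 442.6 at 9 h, while KO1 went from 350 and 356.8 to 314.7 and 305.2, and KO2 from 385.7 and 383.6 to 276.5 and 280.0. At 9 h all 4 clone libraries lay below both of WT, by 1.40-fold in KO1 (log2 -0.48, SE 0.03, adjusted p = 8.49e-33) and 1.56-fold in KO2 (-0.64, SE 0.03, 1.84e-42). The change from 0 to 9 h was itself tested between genotypes: it was lower than in WT by 0.51 in KO1 (SE 0.04, adjusted p = 4.24e-23) and by 0.79 in KO2 (SE 0.04, 2.07e-36). Spike-in scaling turned the KO1 value to 0.39.

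Eif3h, the other eIF3 subunit with an MPN domain, had values of the same kind. It went from 414 and 417.1 to 479.2 and 485 CPM in WT, from 426.8 and 418.8 to 356 and 366.5 in KO1, and from 378.9 and 382.4 to 323.4 and 321.2 in KO2. WT rose and both clones fell, with differences of change of -0.44 in KO1 (SE 0.03, adjusted p = 1.01e-21; 0.46 with spike-in scaling) and -0.45 in KO2 (SE 0.03, 3.55e-22).

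Eef1a1 rose from 11230 and 11250 to 14660 and 14620 CPM in WT. KO1 went from 11150 and 11180 to 11690 and 11740, and KO2 from 10350 and 10340 to 10340 and 10290. The KO2 difference of change was -0.39 (SE 0.02, adjusted p = 1.13e-40) and that of KO1 -0.31, a sign that spike-in scaling turned in KO1. Eef1a1 has many processed pseudogenes, and no option to count reads with several matches is named, so its count is uncertain.

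**Figure D5:**
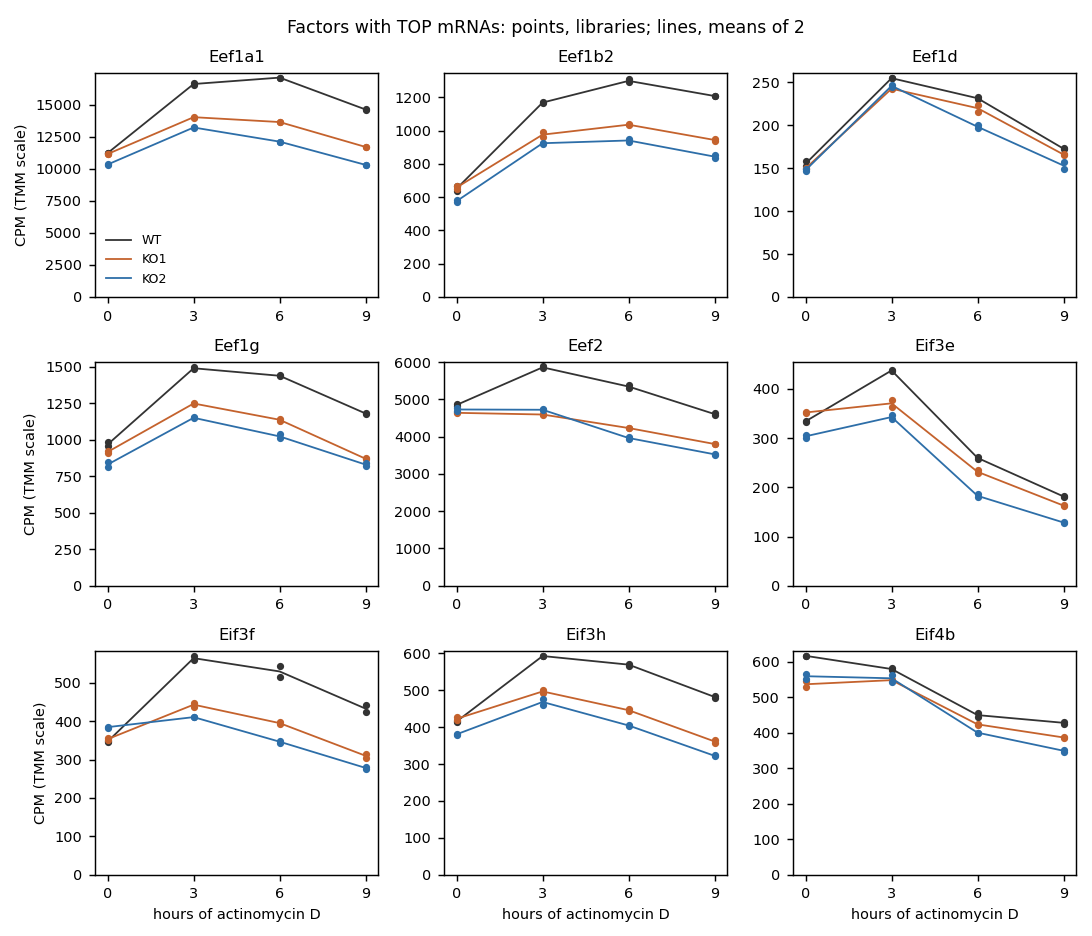
CPM on the TMM scale (vertical axes from 0) against hours of actinomycin D for the 9 TOP genes, with points for libraries and lines through the means of 2. From 3 h on the WT line lies above both clones in each panel. Taken as a ratio to WT and not in CPM, the gap at 9 h is widest in Eif3f and narrowest in Eef1d. With spike-in scaling the clones lie below WT at 0 h too.

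Taking the change from 0 to 9 h over all factors, KO1 minus WT was positive for 8 and negative for 21 among those that passed, against 14.7% and 12.5% of all genes. KO2 minus WT was positive for 4 and negative for 23, against 13.5% and 12.4%. A positive value means a larger rise or a smaller fall than in WT, and a negative one the opposite. Both tests use the same WT libraries. Of the TOP genes, 0 were positive and 7 negative in KO1, and 0 and 8 in KO2. Total-count scaling gave 12 and 16 in KO1 and 14 and 15 in KO2 over all factors, and spike-in scaling gave 53 and 0 in KO1 and 0 and 21 in KO2, so the direction in KO1 depends on the scale. The KO1 count of 8 became 5 without WT replicate 1 of 0 h, WT replicate 2 of 9 h, KO1 replicate 2 of 0 h or KO1 replicate 1 of 9 h, and 4 without KO1 replicate 2 of 9 h.

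The eIF3 genes had 1 positive and 9 negative differences of change in KO1 and 0 and 9 in KO2, and elongation factors 0 and 4 in each; the KO1 signs turn with spike-in scaling. Eif2b1, the alpha subunit of eIF2B, went from 43.18 and 39.81 to 53.19 and 51.54 CPM in WT and from 50.36 and 48.14 to 50.43 and 44.79 in KO1. That difference of change was -0.38 (SE 0.09, adjusted p = 0.000467; 0.52 with spike-in scaling).

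Among the 11 genes of eIF4F and its helpers the signs were mixed, with 5 positive and 3 negative in KO1 and 3 and 4 in KO2; total-count scaling gave 6 and 2, and 6 and 1, and spike-in scaling 11 and 0, and 0 and 2. Eif4e itself had a KO1 value of 0.01 that did not pass, and the helicase gene Eif4a2 one of -0.12 that did. In KO1 Eif4e3, a further eIF4E relative, fell less than in WT: 25.85 and 23.39 to 11.77 and 13 CPM in WT against 22.46 and 24.19 to 16.6 and 15.04 (difference 0.43, SE 0.15, adjusted p = 0.0248). Leaving out WT replicate 1 of either time, KO1 replicate 1 of 0 h or KO1 replicate 1 of 9 h ended this call (adjusted p from 0.101 to 0.143). Eif4e2 (0.20, SE 0.07, adjusted p = 0.0218) went from 92.52 and 97.65 to 51.56 and 54.27 CPM in WT and from 98.79 and 96.4 to 62.25 and 62.84 in KO1. Eif2b4, the delta subunit of eIF2B (0.21, SE 0.08, adjusted p = 0.0426), went from 48.74 and 44.89 to 64.49 and 59.84 in WT and from 49.16 and 54.4 to 83.91 and 75.73 in KO1. The Eif4e2 call was lost without any of 5 libraries: KO1 replicate 2 of 0 h (0.0905), either KO1 library of 9 h (0.0519 and 0.07), WT replicate 2 of 0 h (0.142) or WT replicate 1 of 9 h (0.139). That of Eif2b4 was lost without replicate 1 of KO1 at 0 h (0.302) or 9 h (0.322), WT replicate 1 of 0 h (0.267) or WT replicate 2 of 9 h (0.228), and with no filter (0.0666).

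In KO2 the positive differences named here were those of Eif4h, Eif4a1 and Eif5b, all of which fell in both genotypes. Eif4h, a partner of eIF4A, went from 389.9 and 385.3 to 152.2 and 153.1 CPM in WT and from 400.4 and 406.9 to 174 and 179.3 in KO2 (difference 0.15, SE 0.04, adjusted p = 0.00203). Eif4a1 fell less in KO2, from 950.2 and 957.9 to 749.3 and 754.6 (0.13, SE 0.03, adjusted p = 1.74e-05). Eif5b went from 245.1 and 244.7 to 113.4 and 109.9 in WT and from 255.3 and 252.4 to 124.7 and 128.8 in KO2 (0.13, SE 0.05, adjusted p = 0.0385), a call that ended without any of WT replicates 1 and 2 of 0 h, WT replicate 2 of 9 h, KO2 replicates 1 and 2 of 0 h or KO2 replicate 2 of 9 h (adjusted p from 0.0519 to 0.182). All 3 signs turned under spike-in scaling. At 16.8%, the exon bases of Eif5b overlap Rev1 on the other strand, and counting did not use strand.

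Other genes of the pathway were taken from lists of regulators and partners, with means of 2 libraries given. The shares of all genes called higher and lower were 15% and 12.3% in KO1 and 15.1% and 14.3% in KO2 at 0 h, and 43.2% and 38.5% in WT at 9 h, and with so few genes a list's count is a description only. Of 8 eIF2 kinases and phosphatase genes, 2 were higher in KO1 at 0 h and 0 lower, and 2 higher and 1 lower in KO2. Eif2ak2, the interferon-induced kinase PKR, was 114.7 CPM in WT and 279.7 in KO2 (log2 1.29, SE 0.03, adjusted p = 1.86e-57). In KO1 it was 118.4 CPM and did not pass. In WT at 9 h 3 were higher and 4 lower, near the shares over all genes (median -0.19, beside 0.13), with Ppp1r15a, the stress-induced eIF2 phosphatase subunit, down by 1.72. Of 16 genes of mTORC1 and MNK control, 3 were higher and 5 lower in KO1 and 3 and 6 in KO2 at 0 h, where the higher counts are near the shares over all genes. Deptor, an inhibitor of mTOR, was lower in both (log2 -0.67 and -0.61), and Larp1, which binds TOP mRNAs, higher (0.19 and 0.21, lower on the spike-in scale). In WT at 9 h 4 were higher and 11 lower (median -0.90). Mknk2, a kinase of eIF4E, rose from 114.4 to 414.5 CPM (log2 1.86), while Larp1 fell from 415.9 to 60.45 (-2.78) and Rptor, the mTORC1 scaffold, from 56.45 to 6.746 (-3.06).

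At 0 h, beside 15% higher of all genes in KO1 and 15.1% in KO2, poly(A)-binding genes had 4 of 5 higher in KO1 and 1 in KO2 (0 lower in each). Pabpc1, the main poly(A)-binding protein, fell from 2147 to 1172 CPM in WT by 9 h, and Paip2b, which restrains it, rose from 54.24 to 128.7 (list median -0.71). Termination and rescue genes had 3 of 5 tested higher in KO1, and 1 higher and 1 lower in KO2. In WT at 9 h 4 were lower (median -1.40), among them the release factor Gspt1 (-1.72), and Pelo, a ribosome rescue factor, was higher (1.34). Accessory initiation genes had 5 of 6 higher in KO1, and 1 higher and 2 lower in KO2, and all 6 were lower in WT at 9 h (median -1.0), with Ddx3x, a helicase, down by 1.63. Enzymes that modify the factors had 7 of 14 higher in KO1 and 4 in KO2 with 0 lower. Dph2, of diphthamide synthesis on eEF2, was higher in both (log2 0.49 and 0.38). In WT at 9 h 3 rose and 7 fell (median -0.26), beside 43.2% and 38.5% of all genes, with Dohh, the last enzyme of hypusine synthesis, up by 1.28. Scaled by spike-ins, the clones lie below WT at 0 h in the median gene, as given above.

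Some members share exon bases with other genes, and reads there cannot be assigned by strand. The shares were 67.3% for Eif4ebp3, 43.3% for Eif3d, 20.2% for Eif3j1, 15.3% for Eif1ad, 14.8% for Eif4e3, 13.3% for Eif4a2 and 12.7% for Eif1b. The effect of these overlaps on the values was not tested.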

How the data were processed

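Counts of read pairs per gene were deposited by the authors as 1 table per library. Per the file headers, they were made with featureCounts 1.6.3 without strand, requiring both mates, with exons summed by gene under an Ensembl 105 annotation of GRCm39 plus the spike-in transcripts; no option for reads with several matches is named. STAR, featureCounts and DESeq2 are named per the submitters' processing notes. Gene names came from GENCODE M21, which named 52081 of the 55414 gene IDs; 3333 stayed unnamed.

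The counts as deposited were fitted with edgeR 4.0.16 (R 4.3.3; TMM scaling, filterByExpr with a minimum count of 10, quasi-likelihood F test, 12 groups of 2 libraries) and p-values were adjusted by Benjamini-Hochberg over all 16167 genes tested. A call is an adjusted p under 0.05. Standard errors are the log2 difference divided by the square root of F. CPM values use TMM-scaled library sizes, whose factors ran from 0.906 to 1.12. The fit was checked on simulated data, where large changes were recovered fully and the smallest ones simulated in part; the pass limit for the smallest was lowered after its result was seen, and many clone differences named here are smaller still. Limits for 0 counts take 3 counts over all 24 libraries and cover counting error only.

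Alternatives were DESeq2 1.42.0, total-count and spike-in scaling, no filter, a replicate block, and each library left out in turn. Members given with every library's value were, in each of 6 comparisons, the called ones with the top 3 positive and top 3 negative log2 values at a mean of at least 5 CPM, with the paralog sets; other genes of the pathway were named by size, up to 2 each way per list, with further members and partners named beside them after their values were seen. The members and lists were chosen with earlier results of these data known. Start windows came from RefSeq promoters on GRCm38.p6, whereas gene coordinates are on GRCm39.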

Additional observations from a re-analysis of the deposited data

Results flagged for a closer look

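For 12 values, the change from 0 to 9 h differed between a clone and WT by a test of the difference itself (edgeR, adjusted p under 0.05, log2, TMM scale). In KO1 these were Eif4e3 (0.43), Eif2b4 (0.21) and Eif4e2 (0.20), which fell less or rose more than in WT, and Eif3f (-0.51), Eif3h (-0.44) and Eif2b1 (-0.38). In KO2 they were Eif4h (0.15), Eif4a1 (0.13) and Eif5b (0.13), and Eif3f (-0.79), Eif3h (-0.45) and Eef1a1 (-0.39). They are the largest called differences each way among the factors, so their number was set by the rule for naming. Both clones were compared with the same WT libraries. Spike-in scaling turned the sign of Eif3f, Eif3h and Eif2b1 in KO1 and of Eif4h, Eif4a1 and Eif5b in KO2. Groups of 2 libraries were too small to test for a library that stands apart.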

How the results depend on the processing

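Of 40 counts of calls and 35 named member values, the replicate block left 40 and 35 on the same side, DESeq2 39 and 34, no filter 39 and 32, total-count scaling 34 and 35, and spike-in scaling 7 and 18. Leaving out 1 library kept 167 of the counts and 160 of the member values, moved 9 counts and lost 28 calls. Scaled by spike-in totals, both clones against WT gave 0 higher and 54 lower at 0, 3, 6 and 9 h, as did KO2 against KO1. Against 0 h, that scale gave 5 higher in WT at 3 h, 0 higher and 46 lower at 6 h and 0 higher at 9 h, 16, 0 and 7 higher in KO1, and 0 higher and 35, 54 and 54 lower in KO2. The difference of change gave 53 higher and 0 lower in KO1 and 0 higher in KO2. Reversed on that scale (log2) were Eif1 (-4.63), Eif3j2 (-4.66) and Eif4g2 (-4.74) in KO1 at 0 h, and Eif1 (-5.13), Eif1b (-5.23) and Eif3j2 (-5.25) in KO2. So were Eif3f (-0.34) and Eif4ebp2 (-0.38) in KO2 against KO1, Eif1b (-0.14) and Eif3k (-0.25) in WT at 9 h, and the differences of change of Eif3f (0.39), Eif3h (0.46) and Eif2b1 (0.52) in KO1 and Eif4h (-0.15), Eif4a1 (-0.18) and Eif5b (-0.17) in KO2. Total-count scaling gave 31 and 27 higher in KO2 against WT at 6 and 9 h, 4 higher in KO2 against KO1, 15 higher in KO2 at 9 h against 0 h, and 14 higher and 15 lower for the KO2 difference of change. DESeq2 and no filter each gave 1 higher in KO2 against KO1. With a library left out, lower calls in KO1 at 0 h ranged from 2 to 4, higher calls in KO2 against KO1 from 1 to 2, higher calls in KO2 at 9 h from 10 to 17, and higher differences of change in KO1 from 4 to 7. DESeq2 ended the call of Eif4ebp2 (adjusted p = 0.0858), and no filter those of Eif4ebp2 (0.286), Eif3i (0.13) and Eif2b4 (0.0666); the cause was not tested. The replicate block changed no call of a named member: the labels do not pair the numbers, and same-numbered libraries' deviations correlated at -0.0411 to 0.153 over 66 pairs of groups (median 0.00787), with 3 above 0.1. In WT, spike-in scaling rests on 120 to 257 counts a library.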
